A study of Mus musculus with 6 samples.

Results

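The enzymes described here attach a polar group to drugs, hormones, bile acids and lipid products in the liver. All probes of the array table whose gene symbol belongs to the UDP-glucuronosyltransferases (UGT, symbols beginning with *Ugt* and a digit), the cytosolic sulfotransferases (SULT, *Sult* and a digit), the cytosolic and related glutathione transferases (GST, *Gsta*, *Gstk*, *Gstm*, *Gsto*, *Gstp*, *Gstt* or *Gstz* and a digit) or the microsomal glutathione transferases (MGST, *Mgst* and a digit) were taken, whatever their values. This gave 69 probes of 49 gene symbols, out of 25697 probes of 18138 symbols. By family, 21 probes (16 symbols) were UGT, 15 probes (10 symbols) SULT, 28 probes (20 symbols) GST and 5 probes (3 symbols) MGST.

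RNA of whole liver from male pups of the FVB/N mouse strain (labelled FVB) at postnatal day 6 was measured on single-colour Illumina bead arrays, with 3 hSRY-ON and 3 hSRY-OFF pups. By the study's definition both groups carried Signalox-hSRY, a transgene held as a single copy at the H11 locus and driven by the ubiquitous CAG promoter. In hSRY-OFF mice it is unrecombined, so that the red fluorescent protein DsRed2 is made and human *SRY* is silent. In hSRY-ON mice Cre left in the egg by a *Ddx4-Cre* mother had recombined it in the early embryo, so that FLAG-tagged human *SRY* and EGFP are made under CAG. On that definition the groups differed in their fluorescent protein as well as in *SRY*. The study describes recombination in carriers born to *Ddx4-Cre* mothers whether or not they inherit Cre. Unrecombined pups would then come from another cross, so that mother and litter would differ as well. These differences cannot be told apart here, and all transgenic mice came from 1 integration. The study elsewhere uses littermates without Signalox-hSRY as controls and calls the array comparison one against controls, so the genotype of the hSRY-OFF samples rests on their label. The hSRY-ON pups taken for the arrays had not inherited *Ddx4-Cre* themselves. The transgene's own product was not measured here. The comparison asks how the liver's equipment for conjugation differed when human *SRY* had been active since the early embryo. The pups of the groups were not alike in health. The study reports that hSRY-ON pups suckled little, lacked milk in the stomach, grew more slowly than controls and developed fatty liver. It also reports that some hSRY-ON pups had died by the age used for the arrays. The part of feeding, growth and fatty liver in the enzyme differences was not tested.

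Conjugation is the second phase of drug and hormone metabolism. UGT enzymes sit in the endoplasmic reticulum and transfer a sugar, in most cases glucuronic acid from UDP-glucuronic acid. SULT enzymes transfer sulfate from PAPS (phosphoadenosine phosphosulfate), and GST enzymes join glutathione to reactive electrophiles. In rodents many of these genes are switched on in hepatocytes around and after birth, and several are known targets of the receptors CAR and PXR, of Nrf2 and of the hepatocyte factors HNF1 and C/EBP.

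Promoter sequence is given first, for members lower or higher in hSRY-ON livers that held an antioxidant or HNF1 core (defined below), and for neighbouring *Ugt2b* genes. It is not given for every member with a large difference. The letters are from RefSeq on mouse build GRCm38.p6, 5′ to 3′ in the direction of the gene, within the 250 bases before the annotated start, and 45 of the 49 members had such a sequence (*Gsta4*, *Gstt2*, *Sult4a1* and *Ugt3a2* did not). Both strands were searched for the core of the antioxidant response element bound by Nrf2 (TGACNNNGC), the core of the xenobiotic response element (GCGTG) and the core of an HNF1 site (GTTAAT). The antioxidant core stood in 3 of 45 members, *Gsta3*, *Mgst1* and *Gstm5*, against 11.5% of all 27025 promoters. It is in capitals in these windows, and in *Mgst1* it reads on the other strand. *Gsta3* and *Mgst1* were lower and *Gstm5* higher in hSRY-ON livers.
Gsta3, chr1:21240433-21240502, plus strand: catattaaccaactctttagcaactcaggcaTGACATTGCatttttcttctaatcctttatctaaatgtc
Mgst1, chr6:138140440-138140509, plus strand: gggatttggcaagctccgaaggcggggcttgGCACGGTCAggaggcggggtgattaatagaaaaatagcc
Gstm5, chr3:107895781-107895850, plus strand: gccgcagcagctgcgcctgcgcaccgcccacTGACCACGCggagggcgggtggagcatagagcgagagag

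The HNF1 core stood in 7 of 45 members, against 7.49% of all promoters. Of the 12 members with a promoter that were lower in hSRY-ON livers it stood in 4, namely *Gsta3* (the lower-case attaac near the left end of its window above), *Ugt1a10*, *Ugt1a6a* and *Ugt3a1*. It also stood in *Sult1a1* and *Sult1d1*, whose difference did not pass the test, and in *Ugt2a3*, which was not tested. In the 3 UGT windows the capitals mark it on either strand, and *Ugt1a10* holds it on both.
Ugt1a10, chr1:88055293-88055362, plus strand: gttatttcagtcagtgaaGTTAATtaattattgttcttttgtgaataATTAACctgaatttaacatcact
Ugt1a6a, chr1:88134727-88134796, plus strand: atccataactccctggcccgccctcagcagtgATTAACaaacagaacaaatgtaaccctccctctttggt
Ugt3a1, chr15:9279674-9279743, plus strand: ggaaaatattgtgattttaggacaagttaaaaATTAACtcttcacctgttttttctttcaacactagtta

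The xenobiotic core stood in 9 of 45 members, against 30.9% of all promoters. It was in none (0) of the 12 lower members, and in *Gstm5* one copy overlaps the antioxidant core. A match is a description of letters and no evidence that a factor binds there. The last sequences are those of 4 neighbouring *Ugt2b* genes on chromosome 5, which share a run of 22 bases (capitals) that no other gene of the 27025 held in its window. They are shown because *Ugt2b36* fell strongly, while the probes for *Ugt2b5*, *Ugt2b37* and *Ugt2b38* were detected on no array (0 of 6).
Ugt2b36, chr5:87092556-87092655, minus strand: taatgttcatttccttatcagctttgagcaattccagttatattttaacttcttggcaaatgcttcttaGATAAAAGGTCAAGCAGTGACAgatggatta
Ugt2b5, chr5:87140341-87140440, minus strand: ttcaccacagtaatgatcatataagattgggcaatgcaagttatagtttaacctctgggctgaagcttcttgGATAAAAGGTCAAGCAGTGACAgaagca
Ugt2b37, chr5:87254789-87254888, minus strand: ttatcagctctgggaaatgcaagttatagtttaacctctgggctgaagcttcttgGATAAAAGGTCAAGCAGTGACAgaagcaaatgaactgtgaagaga
Ugt2b38, chr5:87424204-87424303, minus strand: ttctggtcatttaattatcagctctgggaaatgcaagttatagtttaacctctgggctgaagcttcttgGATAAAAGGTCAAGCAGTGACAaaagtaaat

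A probe was tested where its signal exceeded the array's negative controls with a detection p under 0.01, on 3 or more arrays of 6. Of the 69 member probes 36, from 27 symbols, passed, and 33 of these were detected on all 6 arrays. The other 33 probes were not tested, and 28 of them were detected on no array. The arrays were alike in depth, with 10318 to 10762 probes detected and 34 to 37 of the member probes detected on each. Pairs of hSRY-OFF arrays correlated at 0.987 to 0.992 over the tested probes, pairs of hSRY-ON arrays at 0.965 to 0.982, and mixed pairs at 0.912 to 0.939. The third hSRY-ON array stood apart from the other two at the member probes. The median SD over the tested members was 0.12 among hSRY-OFF arrays and 0.31 among hSRY-ON arrays, and it was 0.11 among hSRY-ON arrays without the third. That array was the lowest of its group at 17 of the 36 tested probes and the highest at 16.

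Values are log2 normalized intensities, differences are hSRY-ON minus hSRY-OFF with their standard error (SE), and p-values are from limma with Benjamini-Hochberg adjustment over all 10734 tested probes, two-sided with a threshold of 0.05. Of the 36 tested member probes 18 (50%) fell in hSRY-ON livers, 3 (8.33%) rose and 15 did not pass the test. Across all tested probes the shares were 17.3% lower and 15.8% higher, 33.1% in either direction. Without hSRY-OFF 2 the member counts were 13 lower and 1 higher. The median member difference was -0.49, beside 0.02 for all tested probes. A fall of at least 2-fold was called at 10 member probes (6.95% of all tested probes) and a rise of that size at 1 (5.24%). All hSRY-ON values lay below all hSRY-OFF values at 19 member probes (24.6% of all tested probes) and above them at 3 (25.4%). In whole liver, fewer cells of a type and less RNA per cell cannot be told apart.

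**Figure D1:**
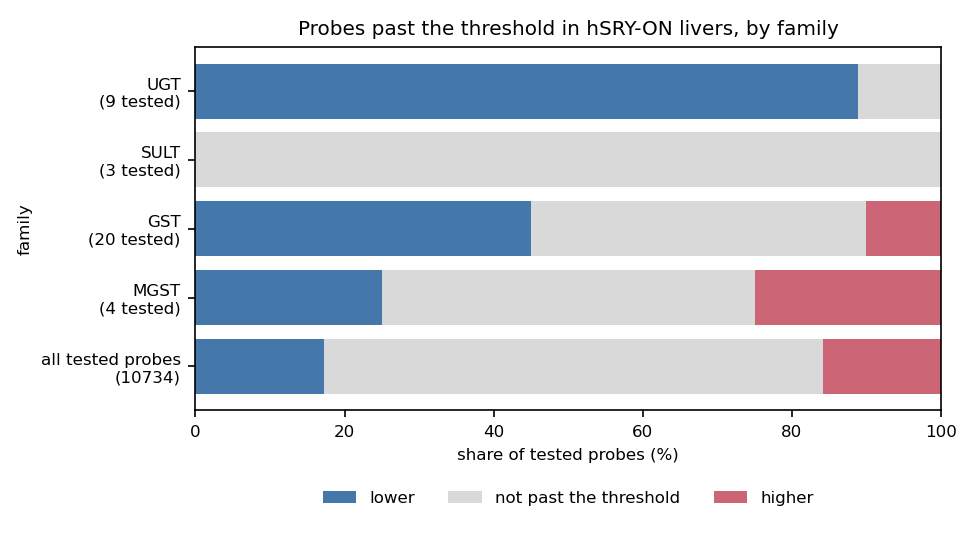
Each bar splits the tested probes of a family into those lower (blue), those not past the threshold (grey) and those higher (red) in hSRY-ON livers, as a share in percent on the horizontal axis; the lowest bar holds all 10734 tested probes. The UGT bar is 88.9% blue with no red, the SULT bar is all grey, and the GST bar is 45% blue and 10% red, beside 17.3% blue and 15.8% red over all probes.

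The UGT family fell most widely. Of 9 tested probes 8 (88.9%), covering all 6 tested symbols, were lower in hSRY-ON livers, none (0) was higher, and the median difference was -1.35. The count was 5 without hSRY-OFF 2 and 5 without hSRY-OFF 3, where 11% and 13.6% of all tested probes were called lower. *Ugt3a2*, whose subfamily transfers sugars other than glucuronic acid, read 12.52, 12.66 and 12.59 on the hSRY-OFF arrays and 8.70, 9.40 and 9.23 on the hSRY-ON arrays. The deposited intensities behind these were 6621, 7647 and 5755 against 597, 780 and 646. The groups lay far apart and the spread was wider among hSRY-ON arrays, with means of 12.59 ± 0.07 and 9.11 ± 0.37 (SD, n = 3 each). The difference was -3.48 ± 0.19 (SE), an 11.1-fold fall with an adjusted p of 8.89e-05 in limma, and it ranked 20th among the falls of all tested probes.

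*Ugt2b36* belongs to the subfamily that glucuronidates steroids and bile acids. Its probe ILMN_2955818 read 13.17, 13.26 and 13.26 on the hSRY-OFF arrays and 9.52, 9.95 and 10.39 on the hSRY-ON arrays. The difference was -3.27 ± 0.21, a 9.68-fold fall (limma, adjusted p = 0.00015). A second probe of the gene, ILMN_1235719, read 13.30, 13.40 and 13.29 against 9.96, 10.40 and 10.86, a 7.57-fold fall with an adjusted p of 0.000224. Both probes thus gave the same order of arrays within the hSRY-ON group, with the third array highest. *Ugt2b35*, of the same subfamily and near background, read 7.04, 7.72 and 7.43 against 6.07, 5.28 and 6.78, the second of these not above background. Its difference was -1.36 ± 0.37 (limma, adjusted p = 0.0269), and -1.20 with the undetected array set at its detection floor. This call was lost without hSRY-OFF 2 (adjusted p = 0.0941), hSRY-OFF 3 (0.0724) or hSRY-ON 1 (0.0711), and the difference was -0.60 without background correction.

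*Ugt3a1*, the neighbour of *Ugt3a2* on chromosome 15, read 10.55, 10.82 and 10.71 on the hSRY-OFF arrays and 9.64, 9.57 and 8.82 on the hSRY-ON arrays. Here the third hSRY-ON array was the lowest, where at *Ugt2b36* it was the highest. The fall was 2.55-fold, with a difference of -1.35 ± 0.23 and an adjusted p of 0.00472 in limma.

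The *Ugt1a* genes on chromosome 1 have alternative first exons joined to a shared set of later exons, and they glucuronidate phenols and many drugs. *Ugt1a10*, a symbol that is also an older name of *Ugt1a7c*, read 13.50, 13.47 and 13.54 in hSRY-OFF livers and 12.79, 13.05 and 12.30 in hSRY-ON livers, groups that did not overlap. Its fall was 1.73-fold, with a difference of -0.79 ± 0.19 and an adjusted p of 0.0184 in limma, and it missed the threshold without hSRY-OFF 1 (0.0631), hSRY-OFF 2 (0.0574) or hSRY-OFF 3 (0.0564). *Ugt1a6a*, which prefers small flat phenols, had 3 tested probes. Probe ILMN_1212835 read 10.96, 10.90 and 10.80 against 10.23, 10.34 and 10.05 and fell 1.60-fold (limma, adjusted p = 0.00669). ILMN_2795317 differed by -0.74 ± 0.20 (adjusted p = 0.0261), a call lost without hSRY-OFF 1 (0.0644), hSRY-OFF 2 (0.0895), hSRY-OFF 3 (0.0702) or hSRY-ON 1 (0.0796). ILMN_2418855, near background, differed by -0.40 ± 0.23 and did not pass the test (adjusted p = 0.22). The table gives no probe positions, so whether these probes read 1 first exon or the shared exons was not tested.

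The falls within the UGT family were thus unequal. The gap between the *Ugt1a10* and *Ugt2b36* signals on the same array changed from 0.27 ± 0.06 (SD) in hSRY-OFF livers to 2.76 ± 0.73 in hSRY-ON livers, a shift of 2.48. That between *Ugt1a10* and *Ugt3a2* shifted by 2.69. These were among 5 pairs picked after their values were seen, so the shifts are a description, and the two-sided exact permutation p of each was 0.1 (adjusted 0.1), the smallest that 3 against 3 arrays can give. The other 10 UGT symbols were not tested. *Ugt2a1*, *Ugt2a2*, *Ugt2a3*, *Ugt2b5*, *Ugt2b34*, *Ugt2b37*, *Ugt2b38* and *Ugt8a* were detected on no array, and *Ugt1a2* and *Ugt2b1* each on 1 hSRY-OFF array. The table had no probe under the symbol of *Ugt1a1*, the enzyme of bilirubin conjugation.

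**Figure D2:**
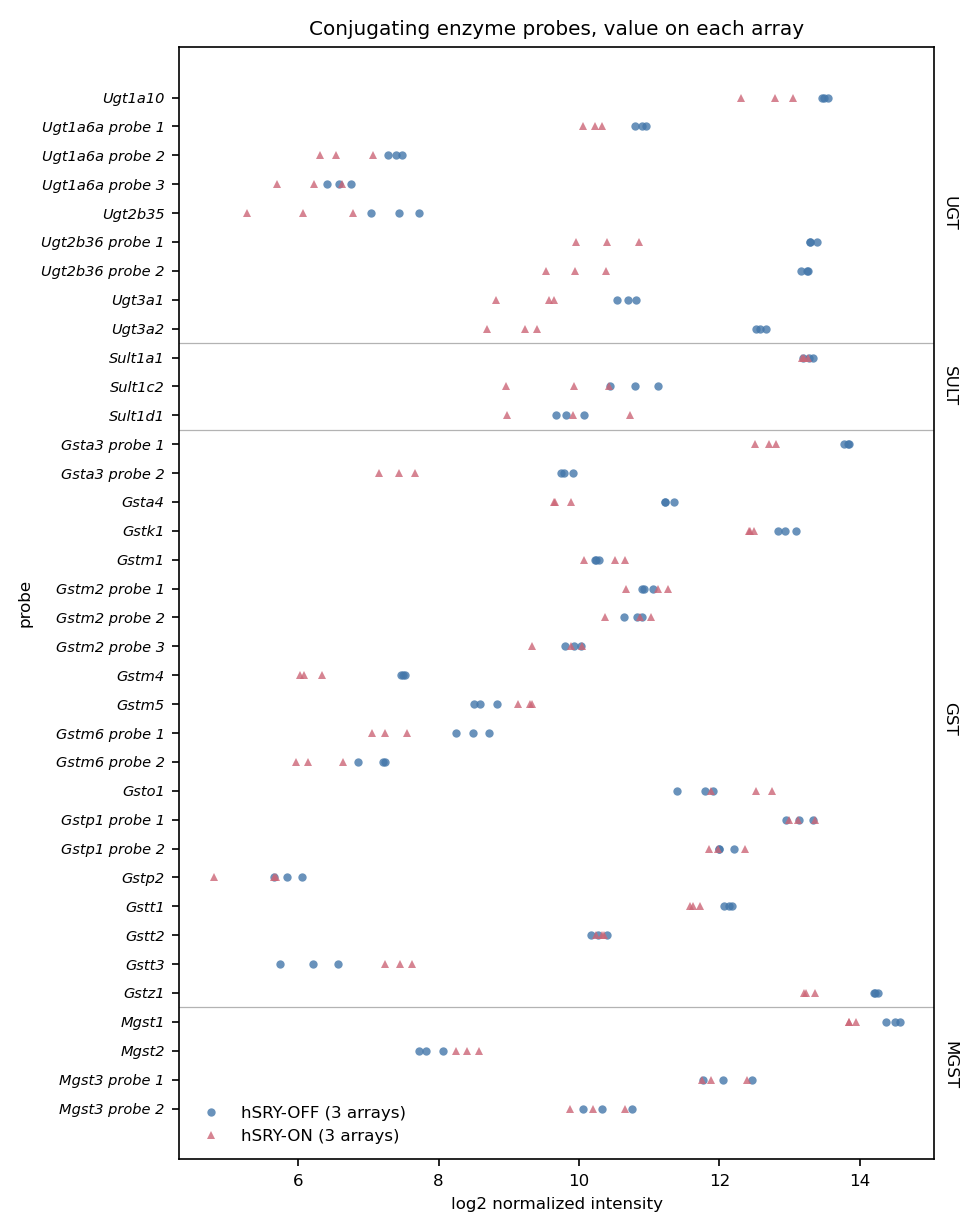
Each row is a tested probe and each point 1 array, on a horizontal axis of log2 normalized intensity, with hSRY-OFF as blue circles and hSRY-ON as red triangles. At *Ugt3a2* and both *Ugt2b36* probes the groups are more than 2 units apart, while at *Sult1a1*, *Gstp1* and *Gstm2* the points mix.

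The sulfotransferases gave no call (0 of 3 tested probes), and at an unadjusted p under 0.05 in limma there was 1, *Sult1c2*. *Sult1a1*, the main phenol sulfotransferase of liver, read 13.19, 13.33 and 13.28 in hSRY-OFF livers and 13.18, 13.20 and 13.27 in hSRY-ON livers. The groups overlapped almost wholly, and the difference was -0.05 ± 0.11 with an adjusted p of 0.752 in limma. *Sult1d1*, which sulfates catecholamines, read 9.67, 10.08 and 9.82 against 9.92, 10.73 and 8.97, with the hSRY-ON arrays lying on both sides of the hSRY-OFF ones (difference 0.02 ± 0.40, limma adjusted p = 0.973).

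*Sult1c2* read 10.80, 10.44 and 11.13 in hSRY-OFF livers and 9.94, 8.97 and 10.43 in hSRY-ON livers, so that the lowest hSRY-OFF and the highest hSRY-ON value all but touched. The difference of -1.01 ± 0.36 did not pass the test (limma, adjusted p = 0.0692). Without hSRY-ON 3 it was -1.34 and passed (adjusted p = 0.0183), and without hSRY-ON 2 it was -0.61 (adjusted p = 0.107). The other 7 SULT symbols were not tested. *Sult1b1*, *Sult1c1*, *Sult1e1*, *Sult2b1*, *Sult3a1* and *Sult4a1* were detected on no array and *Sult5a1* on 1 hSRY-OFF array. *Sult1c1* is also an older name of *Sult1c2*, and which gene its probe reads was not tested. The table had no probe under the symbol of *Sult2a1*, a sulfotransferase of bile acids and steroids.

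The glutathione transferases moved in both directions. Of 20 tested probes 9 (45%, 7 symbols) fell, 2 (10%) rose and 9 did not pass the test, with a median difference of -0.32. The alpha class, which detoxifies products of lipid peroxidation, fell at all 3 tested probes. *Gsta3* probe ILMN_3138685 read 9.74, 9.91 and 9.78 on the hSRY-OFF arrays and 7.15, 7.44 and 7.66 on the hSRY-ON arrays, a difference of -2.40 ± 0.16 and a 5.26-fold fall (limma, adjusted p = 0.00015). The second *Gsta3* probe, ILMN_1241437, read 13.77, 13.83 and 13.85 against 12.70, 12.80 and 12.51, a 2.22-fold fall with an adjusted p of 0.000834. The 2 probes of the gene therefore agreed in direction and differed in size, and which transcripts each reads was not tested. *Gsta4*, which conjugates hydroxynonenal, read 11.23, 11.36 and 11.23 against 9.64, 9.66 and 9.89, a difference of -1.54 ± 0.12 and a 2.91-fold fall (limma, adjusted p = 0.000276). *Gsta1* and *Gsta2* were detected on no array.

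The mu class, a cluster of cytosolic enzymes on chromosome 3, was split. Of 8 tested probes 3 fell, 1 rose and 4 did not pass the test. *Gstm4* read 7.52, 7.46 and 7.50 in hSRY-OFF livers and 6.02, 6.08 and 6.34 in hSRY-ON livers. Its difference was -1.35 ± 0.13, a 2.54-fold fall (limma, adjusted p = 0.000492), and -0.64 without background correction. *Gstm6* probe ILMN_1246321 read 8.49, 8.25 and 8.72 against 7.05, 7.24 and 7.55 and fell 2.30-fold (limma, adjusted p = 0.00308). Its second probe, ILMN_2633096, differed by -0.85 ± 0.20 (adjusted p = 0.0172), a call lost without hSRY-OFF 1 (0.0692), hSRY-OFF 3 (0.0568) or hSRY-ON 1 (0.0555).

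*Gstm5* went the other way from its neighbours *Gstm4* and *Gstm6*. It read 8.51, 8.59 and 8.83 in hSRY-OFF livers and 9.33, 9.30 and 9.13 in hSRY-ON livers, a 1.52-fold rise with a difference of 0.61 ± 0.14 (limma, adjusted p = 0.0135). The call was lost without hSRY-OFF 1 (0.0615) or hSRY-OFF 2 (0.0555). On the same array the gap of *Gstm5* over *Gstm6* grew from 0.16 ± 0.16 (SD) to 1.97 ± 0.36, another of the 5 pairs picked after their values were seen (exact permutation p = 0.1, the smallest possible). *Gstm1*, a main mu-class enzyme of liver, read 10.29, 10.24 and 10.23 against 10.52, 10.66 and 10.07, with hSRY-ON 1 and 2 above and hSRY-ON 3 below all hSRY-OFF arrays (difference 0.16 ± 0.17, limma adjusted p = 0.492). The 3 *Gstm2* probes differed by -0.17 to 0.06 and none passed the test. *Gstm3* was detected on no array. Close relatives in this cluster may bind each other's probes, which was not tested.

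Of the theta class on chromosome 10, *Gstt3* and *Gstt1* moved apart. *Gstt3* read 6.20, 5.75 and 6.57 in hSRY-OFF livers and 7.46, 7.62 and 7.23 in hSRY-ON livers, a 2.40-fold rise with a difference of 1.26 ± 0.22 (limma, adjusted p = 0.00544). It was the only member with a rise of at least 2-fold, and its difference was 0.59 without background correction. *Gstt1*, which acts on small halogenated compounds, read 12.07, 12.19 and 12.14 against 11.73, 11.62 and 11.58. Its groups did not overlap, and the difference of -0.49 ± 0.11 passed (limma, adjusted p = 0.0152) but was lost without hSRY-OFF 1 (0.0509) or hSRY-OFF 2 (0.0631). *Gstt2* differed by 0.03 and did not pass (adjusted p = 0.870). *Gstt4* was detected on no array.

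*Gstz1*, maleylacetoacetate isomerase of tyrosine breakdown, was among the steadiest falls. It read 14.27, 14.21 and 14.21 in hSRY-OFF livers and 13.24, 13.21 and 13.36 in hSRY-ON livers, a difference of -0.96 ± 0.11 and a 1.95-fold fall (limma, adjusted p = 0.00106). *Gstk1*, found in mitochondria and peroxisomes, read 12.83, 12.94 and 13.09 against 12.49, 12.44 and 12.43. Its difference of -0.50 ± 0.12 passed (adjusted p = 0.0172) and was lost without hSRY-OFF 2 (0.0592) or hSRY-OFF 3 (0.0587).

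The pi and omega classes gave no call. *Gstp1*, the pi-class enzyme, read 13.13, 13.34 and 12.95 on the hSRY-OFF arrays and 13.11, 13.00 and 13.36 on the hSRY-ON arrays at probe ILMN_2677046, with wholly mixed groups (difference 0.02 ± 0.16, limma adjusted p = 0.935). A second *Gstp1* probe gave an adjusted p of 0.994, and *Gstp2*, near background, differed by -0.47 (adjusted p = 0.191). *Gsto1*, a dehydroascorbate reductase, read 11.91, 11.80 and 11.40 against 12.53, 12.74 and 11.88. The third hSRY-ON array fell within the hSRY-OFF range, and the difference of 0.68 ± 0.25 did not pass (limma, adjusted p = 0.0718). Without that array it was 0.93 and passed (adjusted p = 0.0094). Of *Gsto2*, 1 probe was detected on 1 hSRY-ON array and the other on none.

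Microsomal glutathione transferases are membrane proteins, unrelated in sequence to the cytosolic ones. *Mgst1*, the form abundant in liver, read 14.38, 14.51 and 14.58 in hSRY-OFF livers and 13.95, 13.84 and 13.85 in hSRY-ON livers. Its difference was -0.61 ± 0.12, a 1.53-fold fall (limma, adjusted p = 0.00746). *Mgst2*, which can make leukotriene C, read 8.07, 7.72 and 7.82 against 8.24, 8.58 and 8.41. It rose 1.46-fold, with groups that did not overlap and a difference of 0.54 ± 0.15 (limma, adjusted p = 0.0276). This was the least steady call, lost without hSRY-OFF 2 (0.102), hSRY-OFF 3 (0.0807) or hSRY-ON 2 (0.0684), with median scaling (0.062) and with array weights (0.0519). The 2 *Mgst3* probes differed by -0.14 and -0.08 and did not pass.

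**Figure D3:**
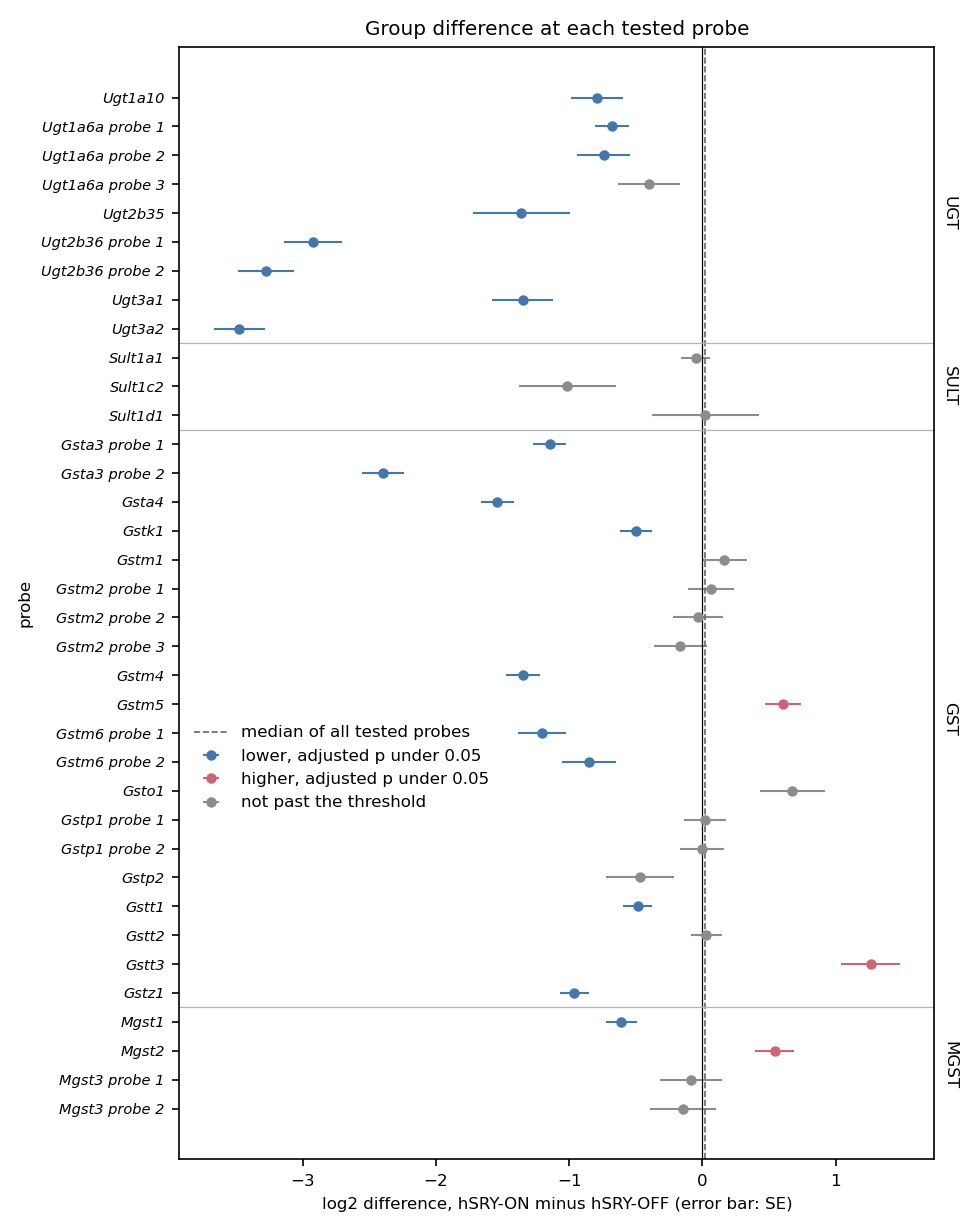
Each row is a tested probe, and the point is its log2 difference, hSRY-ON minus hSRY-OFF, with a bar of 1 SE on either side; blue is lower and red higher at an adjusted p under 0.05, grey did not pass, and the dashed line is the median of all tested probes (0.02). All 9 UGT points lie left of 0, down to -3.48 at *Ugt3a2*, and the 3 red points are *Gstt3*, *Gstm5* and *Mgst2*.

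The genes that supply the conjugated groups were then counted from lists that shared no member with the enzymes. For UDP-glucuronic acid, 2 of only 4 tested probes (50%) rose and none (0) fell, with a median difference of 0.30. Over all tested probes 15.8% were higher and 17.3% lower. Of the UGT probes 8 of 9 fell, and the difference between the lists was not tested. *Ugp2*, which makes UDP-glucose, read 10.37, 10.81 and 10.52 in hSRY-OFF livers and 10.87, 11.50 and 11.14 in hSRY-ON livers, and its rise of 0.61 ± 0.20 lay at the edge of the threshold (limma, adjusted p = 0.04998). It passed without hSRY-ON 1 and was lost without each of the other arrays: hSRY-OFF 1 (0.162), hSRY-OFF 2 (0.0599), hSRY-OFF 3 (0.122), hSRY-ON 2 (0.109) and hSRY-ON 3 (0.0703). *Pgm2*, a phosphoglucomutase, rose by 0.68 ± 0.12 (adjusted p = 0.00607). *Ugdh*, which oxidises UDP-glucose to UDP-glucuronic acid, was detected on no array.

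For PAPS and sulfate, of 15 tested probes 6 (40%) fell, none (0) rose and 9 did not pass, with a median difference of -0.30, beside 17.3% lower and 15.8% higher over all tested probes. The SULT enzymes themselves had 3 tested probes and no call, and the difference between the lists was not tested. *Slc26a1*, a sulfate transporter, read 9.11, 9.13 and 9.04 in hSRY-OFF livers and 6.32, 5.81 and 7.18 in hSRY-ON livers, a 6.31-fold fall (limma, adjusted p = 0.00118). *Papss2*, a PAPS synthase, read 8.01, 8.31 and 7.85 against 6.20, 6.09 and 6.38, a 3.57-fold fall (adjusted p = 0.000351). Both groups of arrays were far apart at these genes, and *Suox*, sulfite oxidase, fell by 1.80 as well (adjusted p = 0.00186). The falls of *Csad* (-0.79), of *Slc35b2*, the Golgi PAPS transporter (-0.75), and of 1 of 3 *Bpnt1* probes (-0.56) were smaller. *Csad* was lost without hSRY-OFF 1 (0.0556), and *Bpnt1* without any array but hSRY-ON 2 (adjusted p of 0.0537 to 0.114). The second PAPS synthase, *Papss1*, did not pass at either probe (adjusted p = 0.149 and 0.231).

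For glutathione, 3 of 15 tested probes (20%) rose and 6 (40%) fell, with a median difference of -0.05, beside 15.8% and 17.3% over all tested probes. The falls were *Cbs*, which begins the route from homocysteine to cysteine (-0.89 and -0.92 at its 2 probes), *Gss*, glutathione synthetase (-0.75, -0.67 and -0.53 at its 3 probes), and *Ggct*, listed on the array as A030007L17Rik (-1.72, limma adjusted p = 0.000722). The rises were *Oplah*, oxoprolinase (1.60, adjusted p = 0.00538), *Glrx*, glutaredoxin (0.94), and 1 *Gpx4* probe (0.58). The *Gpx4* call was lost without hSRY-OFF 1 (0.127), hSRY-OFF 2 (0.0962) or hSRY-ON 1 (0.0988), and of the *Gss* probes ILMN_2818895 was lost without any hSRY-OFF array (0.0561 to 0.0846) and ILMN_2667909 without any array but hSRY-ON 3 (0.0704 to 0.118). *Gclm*, the modifier of the rate-limiting ligase, differed by -0.19 and did not pass (adjusted p = 0.333), and its catalytic partner *Gclc* was detected on no array. Among the listed exporters, not all of which carry conjugates, 1 of 5 tested probes (20%) rose, that of the phospholipid transporter *Abcb4*. *Abcc6* fell by 2.14 (limma, adjusted p = 0.00039), while the conjugate exporters *Abcc2* and *Abcc3* did not pass. Among deconjugating enzymes 1 of 8 rose, *Arsa*, arylsulfatase A, by 1.63, and 1 fell, *Arsb* (12.5% each way, below the shares of all tested probes). Without hSRY-OFF 1, hSRY-OFF 2 or hSRY-ON 1 neither *Arsb* nor the risen exporter *Abcb4* passed (adjusted p of 0.0507 to 0.0658).

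Of the regulators of these genes 4 of 17 tested probes (23.5%) rose and 3 (17.6%) fell, beside 15.8% and 17.3% of all tested probes. *Nr1i3* (CAR) read 9.60, 9.93 and 10.15 in hSRY-OFF livers and 8.10, 8.73 and 8.68 in hSRY-ON livers, a difference of -1.39 ± 0.22 (limma, adjusted p = 0.00349). *Cebpa* read 9.65, 9.69 and 9.76 in hSRY-OFF livers and 8.34, 8.39 and 7.38 in hSRY-ON livers, a difference of -1.66 ± 0.27 (adjusted p = 0.00393), and *Foxa2* fell by 0.83 (adjusted p = 0.0304), a call lost without hSRY-OFF 1 (0.11), hSRY-OFF 2 (0.0788), hSRY-ON 1 (0.0789) or hSRY-ON 2 (0.0586). Without hSRY-OFF 1, hSRY-OFF 2 or hSRY-ON 1 the rises among regulators numbered 2. Both CAR and C/EBP-alpha are hepatocyte regulators, and the related *Cebpb* rose by 1.39 ± 0.20 (adjusted p = 0.00266). The other rises were 1 probe each of *Arnt* (0.97, limma adjusted p = 0.00549), *Bach1* (0.74, 0.024) and *Keap1* (0.41, 0.0404). Without hSRY-OFF 1, hSRY-OFF 2 or hSRY-ON 1 neither *Bach1* nor *Keap1* passed. *Keap1* was also lost without hSRY-OFF 3 or hSRY-ON 3, and *Bach1* without hSRY-ON 2. The other tested *Keap1* probes did not pass. *Nr1i2* (PXR) differed by 0.28, *Hnf4a* by -0.09 and *Nfe2l2* (Nrf2) by 0.20, and none of these passed (adjusted p = 0.145 for *Nr1i2* and 0.539 for *Nfe2l2*). Of the other Nrf2 target genes 1 of 10 tested probes rose, *Hmox1* by 1.03 (adjusted p = 0.00452), and none (0) fell, while without hSRY-ON 2 the rises numbered 5, 3 of them *Srxn1* probes, and without hSRY-ON 3 the falls numbered 2. *Ahr* was detected on no array.

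**Figure D4:**
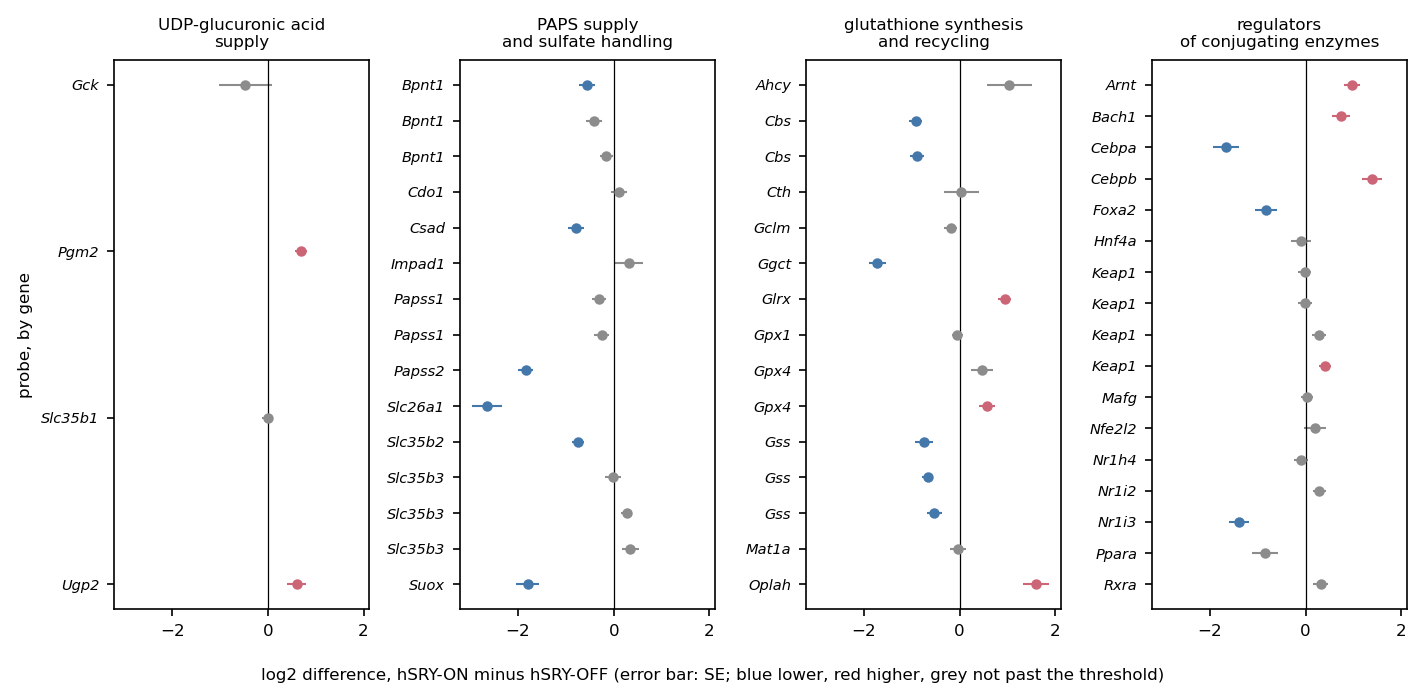
Each panel is a gene list and each row a tested probe by gene, with its log2 difference, hSRY-ON minus hSRY-OFF, and a bar of 1 SE on either side, coloured blue for lower, red for higher and grey for not past the threshold. The sulfate panel reaches -2.66 at *Slc26a1* with no red point, and the regulator panel holds *Cebpa* and *Nr1i3* on the left and *Cebpb* on the right.

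Markers of the tissue and of other cells moved as follows, and their part in the enzyme differences was not tested. Over all tested probes 17.3% were lower and 15.8% higher. Falls were called at 28.6% of tested hepatocyte probes, 33.3% of Kupffer cell, 23.1% of stellate cell and 9.09% of endothelial probes. Rises were called at 41.7% of erythroid, 38.5% of stellate cell, 27.3% of endothelial and 8.33% of Kupffer cell probes. Hepatocyte markers were present on all arrays, with a summed level of 295120 to 306235 in hSRY-OFF livers and 280381 to 322078 in hSRY-ON livers, ranges that overlap. Most of this sum came from *Hp*, *Ahsg*, *Trf* and *Apoa1* probes near the top of the scale. The *Trf* means were 15.32 (hSRY-OFF) and 15.25 (hSRY-ON), beside 15.50 for the brightest probe, *Hba-a1*. The sum can therefore show little of a change in hepatocyte content. Of 14 tested hepatocyte probes 4 fell (*Alb*, *Ttr* and both tested *Serpina1a* probes) and none (0) rose, *Tat* being undetected. The *Alb* probe was dim, with means of 7.94 (hSRY-OFF) and 6.82 (hSRY-ON) beside 14.67 and 14.21 at *Ttr*. It may therefore not report the level of albumin RNA. The falls numbered 1 without hSRY-OFF 2 and 2 without hSRY-OFF 3. The rises numbered 2 without hSRY-ON 3, both *Cps1* probes (0.62 and 0.68, limma adjusted p = 0.0292 and 0.0274), and 1, *Ass1*, without hSRY-OFF 3 (0.61, adjusted p = 0.0424). Erythroid markers rose at 5 of 12 probes, with summed levels of 74255 to 98139 and 100061 to 116884, and at 0 probes without hSRY-OFF 1, 8 without hSRY-OFF 3 and 2 without hSRY-ON 1. Stellate cell markers rose at 5 of 13 and fell at 3, with sums of 20501 to 22971 and 26308 to 28400, led by 4 *Acta2* probes. The other rise, *Des*, was lost without any array but hSRY-ON 3. Kupffer cell markers rose at 1 and fell at 4 of 12, with sums of 13950 to 17341 and 11080 to 13727, the rise being lost without any array but hSRY-OFF 2 and the falls numbering 2, 1 and 2 without hSRY-OFF 1, hSRY-OFF 2 and hSRY-ON 1. Sinusoidal endothelium rose at 3 (*Lyve1* and both *Pecam1* probes) and fell at 1 of 11, with sums of 11071 to 13608 and 10242 to 12797. The fall was lost without any array but hSRY-ON 2, and the rise of *Pecam1* ILMN_2700982 without any array but hSRY-ON 3. Neutrophil markers gave no call (0 of 12 in limma, 1 at an unadjusted p under 0.05, and 6 lower without hSRY-ON 3), and their sum ran from 47679 to 55119 in hSRY-OFF livers and from 32314 to 102530 in hSRY-ON livers. Of the cholangiocyte markers 1 of 4 tested probes rose and 2 fell, with sums of 729 to 919 and 725 to 2225, both falls being lost without hSRY-OFF 1 or hSRY-OFF 2 and 1 without hSRY-ON 2, and *Krt19* and *Sox9* were detected on no array.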

How the data were processed

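Per the labels, 3 hSRY-ON and 3 hSRY-OFF livers were hybridised, groups and replicate numbers coming from the titles. The authors deposited, for each of 25697 probes and each array, a bead intensity on a linear scale with no background subtraction or normalization, and a detection p-value against the negative controls. The submitters' processing notes list limma, and the study's methods name TCC, a count package, which was not applied to intensities. No scanner software version was given in the sources used here, and slide and scan date were not used.

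Background was removed from the deposited intensities with limma 3.58.1 in R 4.3.3 (nec, offset 16), followed by quantile normalization and log2. The offset shrinks the differences of dim probes. Probes detected at p under 0.01 on 3 or more of the 6 arrays entered a fit of group alone (lmFit, eBayes), with Benjamini-Hochberg adjustment over the whole table. Probes of a gene were tested separately. Between genes, only the change of a gap on the same array was compared, not the levels. The fit was tested on simulated data. Depth was alike across arrays, and their number, 3 per group, limits the precision. The methods call the samples biological triplicates, while the labels do not say that they came from separate animals.

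The members, the other gene lists and the tests were chosen with earlier results of these data known. By rule, values on all arrays are given for called probes with a log2 difference of at least 1 (1 probe per gene, that of smallest p) and for 9 genes named whatever their values (of which *Ugt1a1* and *Sult2a1* had no probe and *Ugt2b34* was not tested). Array values of further members were added after their values were seen. Summed marker levels are sums of normalized linear intensities over all probes of a list. Rerunning the other lists under the same alternatives was chosen after seeing the data. RefSeq (GRCm38.p6) lists all 49 member symbols as current names, of which *Ugt1a10* and *Sult1c1* are also older names of other genes, so that the gene read and the promoter printed for *Ugt1a10* may not match. No column was left without a sample (0).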

Additional observations from a re-analysis of the deposited data

How the results depend on the processing

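Of the 21 member calls 13 held under every alternative run (other background correction, scaling, filter, variance model, blocking by replicate number, leaving out each array), no difference changed sign where it was called, and the other 8 were named beside their values or are given here. The counts were 17 to 19 lower and 2 or 3 higher under these settings, and 12 lower and 1 higher at an adjusted p under 0.01. With each array left out in turn they ran from 13 to 19 lower and from 1 to 4 higher. Median scaling gave 2 higher and 19 lower with a median member difference of -0.65, and moved the median of all tested probes from 0.02 to -0.04. Without a filter on dim probes *Ugt2b35* missed the threshold (adjusted p = 0.0615), and *Sult5a1* (-0.69, adjusted p = 0.021) and *Ugt2b1* (-0.88, adjusted p = 0.0282) were lower. Without background correction the differences of dim probes shrank, to -0.78 and -0.38 at the *Gstm6* probes and to -0.37 at *Ugt1a6a* ILMN_2795317. *Sult1c2* passed with median scaling (adjusted p = 0.0339), trimmed mean scaling (0.0376) and array weights (0.0199), and *Gsto1* with array weights (0.0182).

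Samples with the same replicate number did not clearly deviate together (correlations of 0.025, 0.095 and 0.052), so the numbers were not taken as pairs. With the replicate number as a block 19 member probes were lower and 3 higher, including 20 of the 21 calls. *Mgst2* was lost (adjusted p = 0.0651), and *Gsto1* (0.0251) and *Sult1c2* (0.0157) passed.

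Probes near background, among them *Ugt2b35*, *Gstp2* and *Ugt1a6a* ILMN_2418855, are limited by signal over background, and the 33 untested probes give no level.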
